A study of Mus musculus with 18 samples.

Results

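The 10 tubulin genes described here are the α-tubulin genes *Tuba1a*, *Tuba1b*, *Tuba1c* and *Tuba4a* and the β-tubulin genes *Tubb2a*, *Tubb2b*, *Tubb3*, *Tubb4b*, *Tubb5* and *Tubb6*, taken by symbol from a count table of 52636 mouse genes. They were chosen by their normalized counts across the 6 groups of these same libraries, so their levels and differences are given as a description, without *P*-values. The table names 20 tubulin genes in all, and the other 10 (*Tuba3a*, *Tuba3b*, *Tuba8*, *Tubal3*, *Tubb1*, *Tubb4a*, *Tubg1*, *Tubg2*, *Tubd1* and *Tube1*) form one of the comparison lists. The 18 RNA-seq libraries came from the retinal pigment epithelium (RPE) of C57BL/6 mice at postnatal day 14, in 6 groups of 3. Each library held the RNA of both eyes of 1 mouse, from cells freed with papain after the retina and optic nerve had been taken away. One group was uninjected. The others received an AAV8 vector under the retina at birth, with expression driven by the *Best1* promoter, which is active in the RPE. The GFP group received GFP, and the nSREBP2 group received the truncated, nuclear form of the sterol regulator SREBP2. The ctrl sh group received a hairpin against LacZ, a bacterial gene, and the Lrp2 sh1 and Lrp2 sh2 groups received separate hairpins against *Lrp2*, which encodes a large endocytic receptor. The hairpin vectors also carried mCherry. GFP was the control of nSREBP2, ctrl sh was the control of both hairpins, and the hairpins were also compared with each other.

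α- and β-tubulin join as heterodimers, and the heterodimers polymerize into microtubules, the tracks on which organelles move and from which the mitotic spindle and the cilium are built. Mammals have several genes for each class, called isotypes, whose proteins are alike in the body and differ most in the acidic tail at the carboxy terminus. The tail is where enzymes add or remove tyrosine and glutamate residues. In the RPE, microtubules carry melanosomes and phagosomes of shed photoreceptor discs. *Tuba1a*, *Tubb2a*, *Tubb2b* and *Tubb3* are prominent in neurons. *Tuba1b*, *Tuba1c*, *Tubb5* and *Tubb6* are broadly used, *Tubb4b* is a principal β-tubulin of cilia, and *Tuba4a* is found in platelets and mature neurons, among other cells.

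The 3′ ends of the coding sequences are shown because the isotypes are told apart there and because the last codon of an α-tubulin gene decides whether a terminal tyrosine is encoded. Each line gives the last 48 coding bases (GENCODE, GRCm38), with the last codon before the stop in capitals.
Tuba1c: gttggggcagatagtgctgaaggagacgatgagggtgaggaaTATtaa
Tuba4a: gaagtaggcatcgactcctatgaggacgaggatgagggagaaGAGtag
Tubb4a: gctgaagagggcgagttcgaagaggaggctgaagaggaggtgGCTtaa
Tubb4b: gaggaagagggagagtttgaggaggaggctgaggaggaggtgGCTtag
Tubb5: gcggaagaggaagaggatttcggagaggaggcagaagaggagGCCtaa
Tubb2a: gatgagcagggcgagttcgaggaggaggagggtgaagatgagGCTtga
Tubb2b: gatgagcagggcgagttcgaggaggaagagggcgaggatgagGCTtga
*Tuba1c* ends on TAT, a tyrosine codon. *Tuba4a* ends on GAG, a glutamate codon, so that its product has no encoded terminal tyrosine. The coding sequences of *Tuba1a* and *Tuba1b* were 98.3% identical, those of *Tuba1b* and *Tuba1c* 97.9% and those of *Tubb2a* and *Tubb2b* 96.5%, whereas *Tuba4a* shared 85.2% with *Tuba1b* and *Tubb4b* shared 83.2% with *Tubb4a*.

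This likeness bears on the counts. Of the 150-base windows along the transcripts, 54.7% in *Tuba1a*, 57.9% in *Tuba1b* and 46.7% in *Tuba1c* occurred exactly in a transcript of another gene. The share was 27.9% in *Tubb2a*, 20.1% in *Tubb2b* and 16.8% in *Tubb4b*. A read from such a window cannot be assigned to 1 gene by itself, so the split between these genes is uncertain. *Tuba4a*, *Tubb3*, *Tubb5* and *Tubb6* had no such window. *Tuba4a* (chr1:75214228-75219865, minus strand, GRCm38) overlaps 1379 exonic bases of *Stk16* on the opposite strand, and *Tubb4b* (chr2:25222160-25224702, minus strand) overlaps 121 bases of *Fam166a*. The strand setting of the counting is not given in the sources used here, so reads of such a pair may be mixed. Unnamed gene models overlap 473 bases of *Tuba1a* and 426 bases of *Tuba1b* on the same strand. The window percentages count sharing with any other gene, these models included, so they do not measure isotype likeness alone. *Tuba1a*, *Tuba1b* and *Tuba1c* lie together on chromosome 15 between 98931425 and 99038110, and *Tubb2a* and *Tubb2b* lie together on chromosome 13 between 34074274 and 34130466.

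Depth ran from 8921885 to 13696934 counts per library. Levels are CPM, the counts scaled to a common library size by TMM normalization. With 3 counts taken as the limit a count of 0 allows, this limit lay at 0.216 to 0.327 CPM. *Lrp2* was at 29.7 to 42.8 CPM in Lrp2 sh1, 34.6 to 43.6 in Lrp2 sh2, 25.1 to 37.7 in nSREBP2 and 87.7 to 166 in ctrl sh. The RPE marker *Rpe65*, which encodes the isomerase of the visual cycle, was at 375 to 1129 CPM in the uninjected libraries but at 1.06 to 97 CPM in the injected ones, and the 10 RPE markers together fell from 2687 to 7887 CPM in uninjected libraries to 388 to 3847 CPM in injected ones. Collagen and other fibroblast markers summed to 18885 to 86300 CPM, so the libraries held RNA of neighboring cells as well. Y-linked reads were present in the 3 nSREBP2 libraries, in replicates 2 and 3 of Lrp2 sh2 and in replicate 3 of the uninjected group, and at 10 counts or fewer in the remaining 12. Since no replicate pair agreed within counting noise, all 18 libraries were used. In tissue of mixed cells, fewer cells of a type and less RNA per cell cannot be told apart.

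Of the 10 genes, *Tubb5* and *Tuba1a* had the highest mean CPM in each of the 6 groups. On this scale, which is not corrected for length, *Tubb5* ranged from 275 to 500 CPM over the 18 libraries, *Tuba1a* from 251 to 399 and *Tuba1b* from 150 to 232. At the other end, *Tubb3* stayed between 0.869 and 3.74 CPM. The highest library exceeded the lowest by 4.97-fold for *Tuba4a*, 4.68-fold for *Tubb2b* and 3.27-fold for *Tubb4b*, but only by 1.55-fold for *Tuba1b* and 1.59-fold for *Tuba1a*. The 10 genes together amounted to 1020 ± 50.9 CPM (SD, n = 3) in uninjected eyes, 1098 ± 51.1 in GFP, 1129 ± 80 in ctrl sh, 1127 ± 26.9 in Lrp2 sh2, 1289 ± 79.3 in nSREBP2 and 1347 ± 22.3 in Lrp2 sh1.

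**Figure D1:**
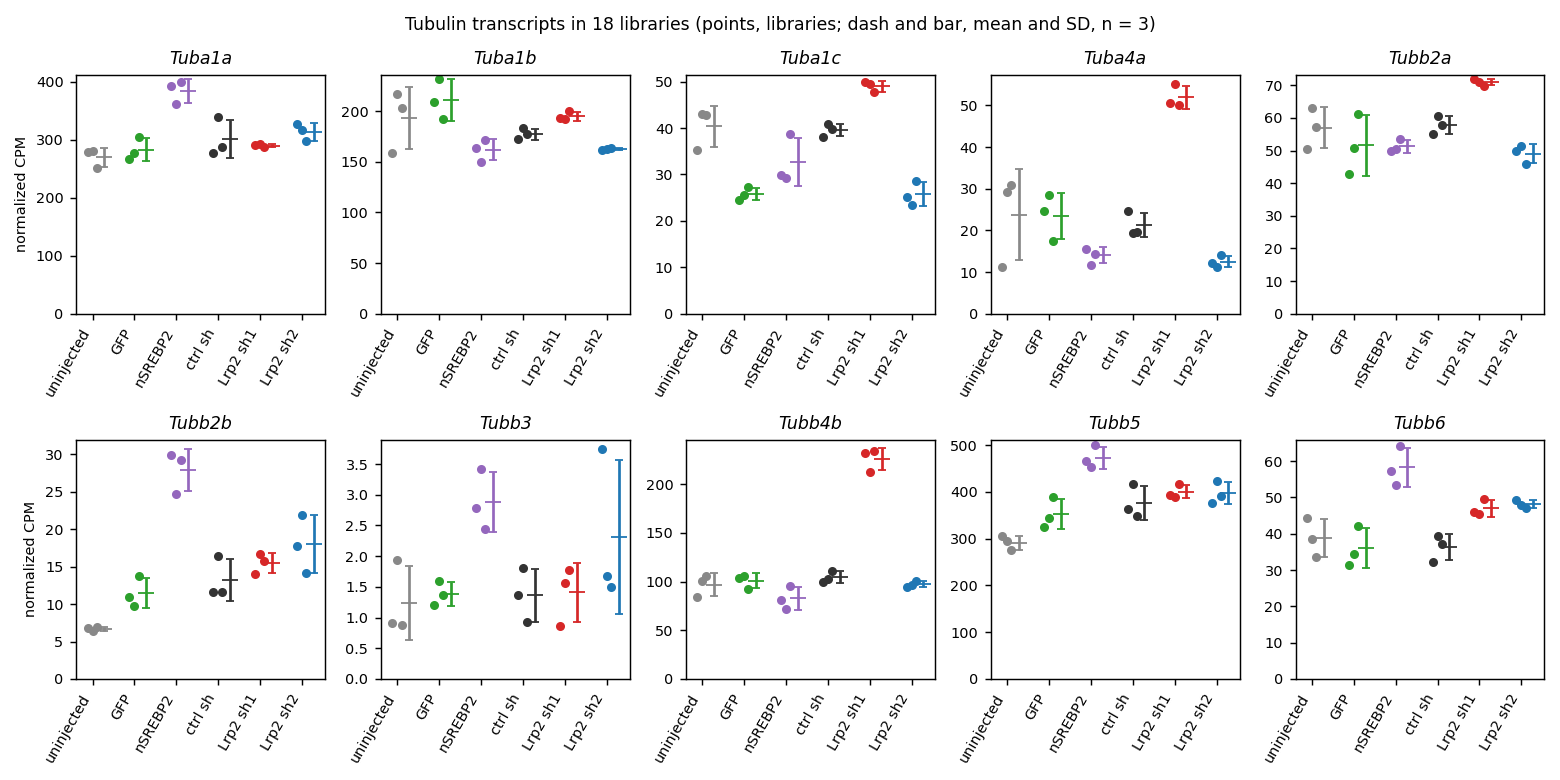
Normalized CPM (y axis, linear, from 0) of the 10 tubulin genes in each of the 18 libraries, by group on the x axis. Points are libraries, and the dash with its bar is the mean with the SD (n = 3). *Tubb4b* in Lrp2 sh1 lay at 213 to 234 CPM, above the 71.5 to 111 CPM of all the others.

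Dividing by exon length corrects for length but not for reads shared between genes. Levels and shares of genes with shared windows therefore remain uncertain against those of other genes. Per kilobase, *Tuba1a* reached 150 ± 9.17 CPM in uninjected eyes (SD, n = 3), *Tuba1b* 103 ± 16.3, *Tuba1c* 17.7 ± 1.94 and *Tuba4a* 6.42 ± 2.97. Among β-tubulins, the same measure was 87.6 ± 4.47 for *Tubb5*, 46.4 ± 5.59 for *Tubb4b*, 35.4 ± 3.93 for *Tubb2a*, 15.9 ± 2.17 for *Tubb6*, 2.92 ± 0.12 for *Tubb2b* and 0.665 ± 0.321 for *Tubb3*. Within each class, neighbors in this order were farther apart than their SDs. The per-length shares showed how the mix moved. *Tubb4b* made up 32.9% ± 1.3 of the β sum in Lrp2 sh1 (SD, n = 3), against 21.2% ± 2.06 in ctrl sh and 19.4% ± 0.873 in Lrp2 sh2. *Tubb5* took 36.4% ± 0.18 in Lrp2 sh1, against 47.7% ± 1.43 in ctrl sh and 55% ± 1.14 in nSREBP2. In nSREBP2, *Tuba1a* had 67.2% ± 0.659 of the α sum against 54.7% ± 3.58 in GFP, and *Tuba1b* had 27.2% ± 0.171 against 39.2% ± 3.27. With the coding length in place of exon length, the share of *Tubb4b* in Lrp2 sh1 was 27.3% against 16.8% in ctrl sh, so the share depends on the length used while its order between these groups does not.

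**Figure D2:**
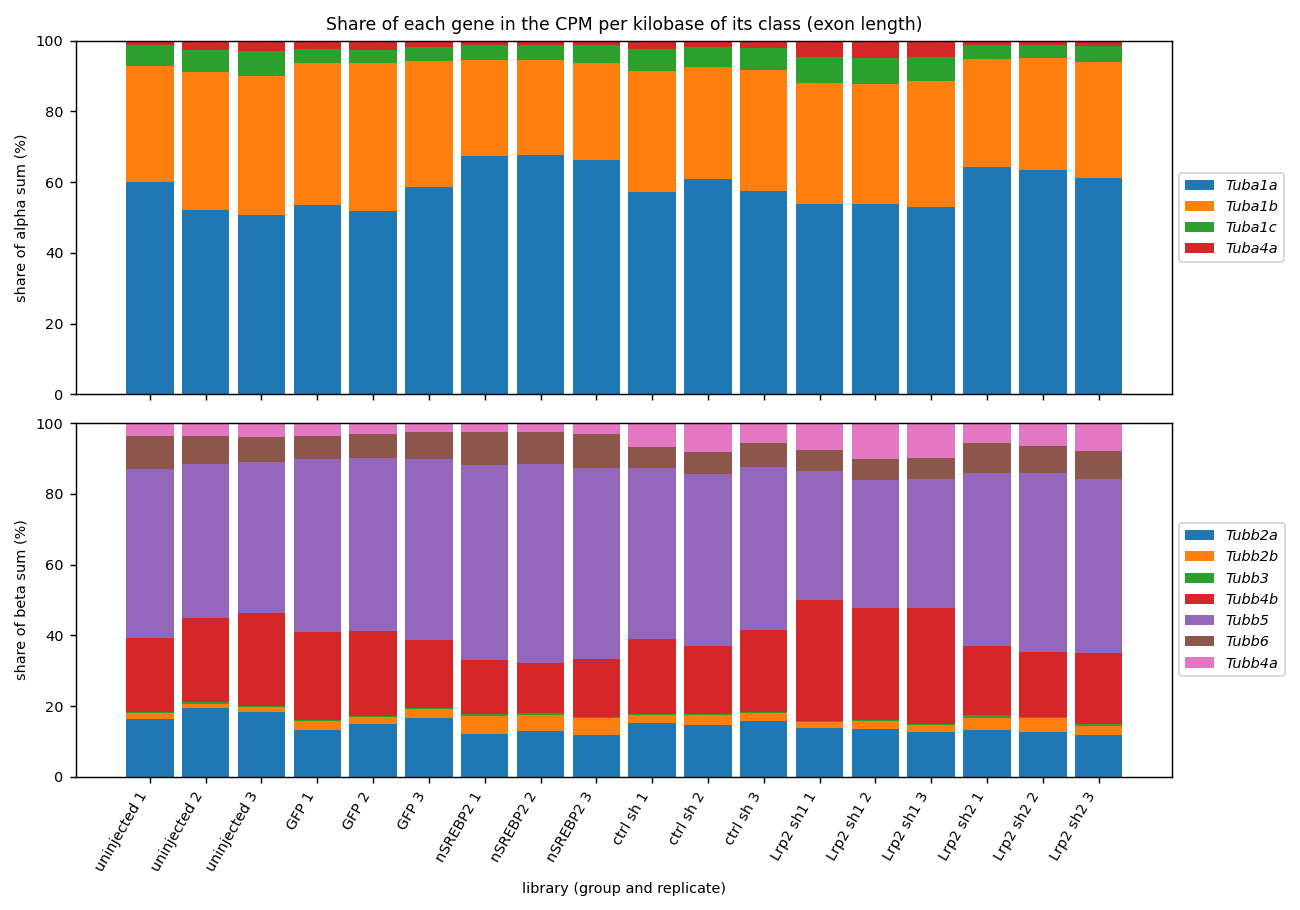
Share (y axis, percent) of each gene in the summed CPM per kilobase of exon of its class, α above and β below (the latter with *Tubb4a*), in each library on the x axis. The *Tubb4b* segment was 31.6% to 34.2% in the Lrp2 sh1 libraries and 14.1% to 26.2% in the remaining ones.

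Of the 10 genes, *Tuba4a* and *Tubb4b* stood highest in Lrp2 sh1 relative to its control. *Tuba4a* was at 50.5, 55.2 and 50.1 CPM in the 3 Lrp2 sh1 libraries and at 24.6, 19.4 and 19.7 CPM in ctrl sh. All the Lrp2 sh1 libraries were thus above all the control libraries, and the log2FC was 1.28 ± 0.1 (SE), a 2.43-fold difference. *Tubb4b* was at 232, 213 and 234 CPM in Lrp2 sh1 and at 99.2, 103 and 111 CPM in ctrl sh. Again the groups did not overlap (log2FC 1.11 ± 0.07, 2.16-fold). *Tuba1c* (0.31 ± 0.06), *Tubb2a* (0.29 ± 0.06) and *Tubb6* (0.37 ± 0.09) were higher by smaller amounts on the log2 scale, without overlap of the libraries. *Tuba1b* (0.13 ± 0.05) lay apart from its control as well, and *Tuba1a* (-0.06 ± 0.08), *Tubb2b* (0.23 ± 0.15), *Tubb3* (0.03 ± 0.36) and *Tubb5* (0.08 ± 0.08) overlapped with it. At an adjusted *P* under 0.05 (edgeR quasi-likelihood test, adjusted by the Benjamini-Hochberg method over all genes), 5 of the 10 genes were called, all 5 higher. Of 17801 genes tested, 5.33% were called in this comparison and 3.06% were called higher. The median log2FC was 0.26 over the 10 genes and -0.01 over all genes. Leaving out replicate 3 of ctrl sh or any of the 3 Lrp2 sh1 libraries left 2 genes called, *Tuba4a* and *Tubb4b*. No marker list had more than 1 gene called here. The median log2FC was -0.44 over the 10 RPE markers, of which *Mitf* fell (-0.54 ± 0.06, edgeR adjusted *P* = 0.000969), with a sum of 1413 to 2257 CPM in Lrp2 sh1 and 1846 to 3847 CPM in ctrl sh. It was -0.38 over the 5 red blood cell markers, of which *Hba-a2* fell (-0.42 ± 0.09, edgeR adjusted *P* = 0.0263), with a sum of 476 to 597 CPM against 632 to 804. The fibroblast sum was 44849 to 54130 CPM against 33374 to 47408. Their part in the tubulin values was not tested.

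*Stk16*, the gene across from *Tuba4a*, was at 28.1 ± 2.96 CPM in Lrp2 sh1 and 28.8 ± 1.44 in ctrl sh (SD, n = 3; log2FC -0.04 ± 0.1, edgeR adjusted *P* = 0.865). *Fam166a*, across from *Tubb4b*, was at 2.83 ± 0.654 and 2.1 ± 0.0126 CPM in the same groups (log2FC 0.43 ± 0.24, edgeR adjusted *P* = 0.357).

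The promoters of *Tuba4a* and *Tubb4b* are shown because these genes had the largest rise in Lrp2 sh1 against ctrl sh. Each runs from 250 bases before to 50 bases after the RefSeq start (GRCm38.p6), on the strand of the gene. Capitals mark the CCAAT box (CCAAT), the GC box (GGGCGG), the TATA box (TATAAA), the E-box (CACGTG) and the cyclic AMP response element (TGACGTCA), each searched on both strands. The windows are chr1:75219245-75219544 and chr2:25224653-25224952, both minus strand.
Tuba4a: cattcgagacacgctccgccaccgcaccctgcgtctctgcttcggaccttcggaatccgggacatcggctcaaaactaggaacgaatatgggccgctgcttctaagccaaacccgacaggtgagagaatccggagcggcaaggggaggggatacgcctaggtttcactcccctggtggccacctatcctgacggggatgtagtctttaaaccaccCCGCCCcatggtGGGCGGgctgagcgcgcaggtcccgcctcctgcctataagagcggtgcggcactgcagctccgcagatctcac
Tubb4b: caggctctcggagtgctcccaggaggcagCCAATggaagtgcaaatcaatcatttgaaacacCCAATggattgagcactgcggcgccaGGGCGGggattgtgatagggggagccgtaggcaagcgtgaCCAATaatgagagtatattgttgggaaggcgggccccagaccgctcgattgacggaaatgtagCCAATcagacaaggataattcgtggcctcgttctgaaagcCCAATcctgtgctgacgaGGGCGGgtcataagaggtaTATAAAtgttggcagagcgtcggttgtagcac
The *Tubb4b* window held 5 CCAAT boxes, 2 GC boxes and 1 match to the TATA box letters. That match lay after the start, at offset 18, inside the transcript. The *Tuba4a* window held 2 GC boxes. At least 1 CCAAT box occurred in 37.9% of 27025 promoters of the same length, a GC box in 35.9% and a TATA box in 14.2%. The GC box was the motif that both windows held. It was not particular to them, since the windows of *Tuba1a*, *Tuba1b*, *Tubb2a*, *Tubb3* and *Tubb5* held it too. The window of *Tuba1c*, which was also highest in Lrp2 sh1, did not. The *Tubb4a* window had no match to these letters.

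In Lrp2 sh2, *Tuba4a* stood lower than the control and *Tubb4b* level with it, while *Tubb6* was higher than the control, as in Lrp2 sh1. *Tuba4a* was at 12.1, 11.3 and 14 CPM in the 3 Lrp2 sh2 libraries, below all the ctrl sh libraries (log2FC -0.76 ± 0.13). *Tubb4b* was at 94.8, 96.7 and 101 CPM, which overlapped with its control (-0.09 ± 0.07). *Tuba1c* was at 25.2, 23.4 and 28.5 CPM in Lrp2 sh2 and at 38.1, 40.8 and 39.8 in ctrl sh, again without overlap (-0.61 ± 0.09). *Tubb2a* (-0.23 ± 0.07) and *Tuba1b* (-0.11 ± 0.06) were lower in every library too. *Tubb6* was at 49.3, 48 and 47 CPM against 32.3, 39.3 and 37.3 (0.42 ± 0.08). *Tubb3* had 3.74 CPM in replicate 1 of Lrp2 sh2 but 1.68 and 1.5 CPM in the other 2 libraries, within reach of the 0.927 to 1.8 CPM of ctrl sh. Of the 10 genes, 3 were called, 1 higher and 2 lower, while 18.1% of 18089 genes were called in either direction, 8.59% higher and 9.48% lower. These 3 calls remained without any single library. The median log2FC was -0.01 over the 10 genes and 0.01 over all genes.

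Other cells' markers did move in Lrp2 sh2. Of 14 proliferation markers 13 rose against ctrl sh (sum 208 to 298 CPM against 132 to 152), 10 of 12 rod markers rose (80.4 to 422 CPM against 43.7 to 66.7) and 7 of 8 endothelial markers fell (1298 to 1379 CPM against 1942 to 2035). Of the 14 neuron markers 8 were tested and 4 rose, with *Elavl4* at 0 in 1 of the 3 Lrp2 sh2 libraries. All 5 red blood cell markers fell (350 to 438 CPM against 632 to 804), and 5 of 10 RPE markers fell (504 to 851 against 1846 to 3847). Their part in the tubulin values was not tested.

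Set against each other, the hairpins differed most in *Tuba4a*, which was 4.15-fold lower in Lrp2 sh2 than in Lrp2 sh1 (log2FC -2.05 ± 0.09). *Tubb4b* was 2.31-fold lower (-1.21 ± 0.06) and *Tuba1c* 1.9-fold lower (-0.92 ± 0.08), the latter with 49.9, 49.5 and 47.7 CPM in Lrp2 sh1. *Tubb2a* (-0.52 ± 0.06) and *Tuba1b* (-0.25 ± 0.05) were lower as well. In each of these 5 genes every Lrp2 sh2 library was below every Lrp2 sh1 library. The other 5 genes were not called. The libraries of the hairpins overlapped for *Tubb5* (0 ± 0.06), *Tubb6* (0.04 ± 0.06), *Tubb2b* (0.22 ± 0.15) and *Tubb3* (0.73 ± 0.41), and did not for *Tuba1a* (0.12 ± 0.06). The 5 lower genes were the 5 called, where 22.4% of 17975 genes were called in either direction and 12.3% were called lower, and the calls remained without any single library. The call of *Tuba1b* was lost with all 18 libraries in one fit, with and without sex as a term. *Lrp2* itself was at 36.9 ± 6.61 CPM in Lrp2 sh1 and 38.6 ± 4.58 in Lrp2 sh2 (SD, n = 3). *Stk16* was at -0.01 ± 0.09 on the same scale (edgeR adjusted *P* = 0.952), and *Fam166a* was lower (-0.82 ± 0.26, edgeR adjusted *P* = 0.0451). Replicate 1 of Lrp2 sh2, the 1 library of that group without Y-linked reads, was at 12.1 CPM of *Tuba4a* and 94.8 CPM of *Tubb4b*, below all Lrp2 sh1 libraries, none of which had such reads either. Of the markers, 13 of 14 for proliferation, 10 of 12 for rods and 6 of 8 for macrophages were higher in Lrp2 sh2 than in Lrp2 sh1, and 8 of 8 for endothelium and 6 of 10 for RPE were lower (sums of 1298 to 1379 against 1806 to 1924 CPM and of 504 to 851 against 1413 to 2257 CPM). Their part in the tubulin values was not tested.

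**Figure D3:**
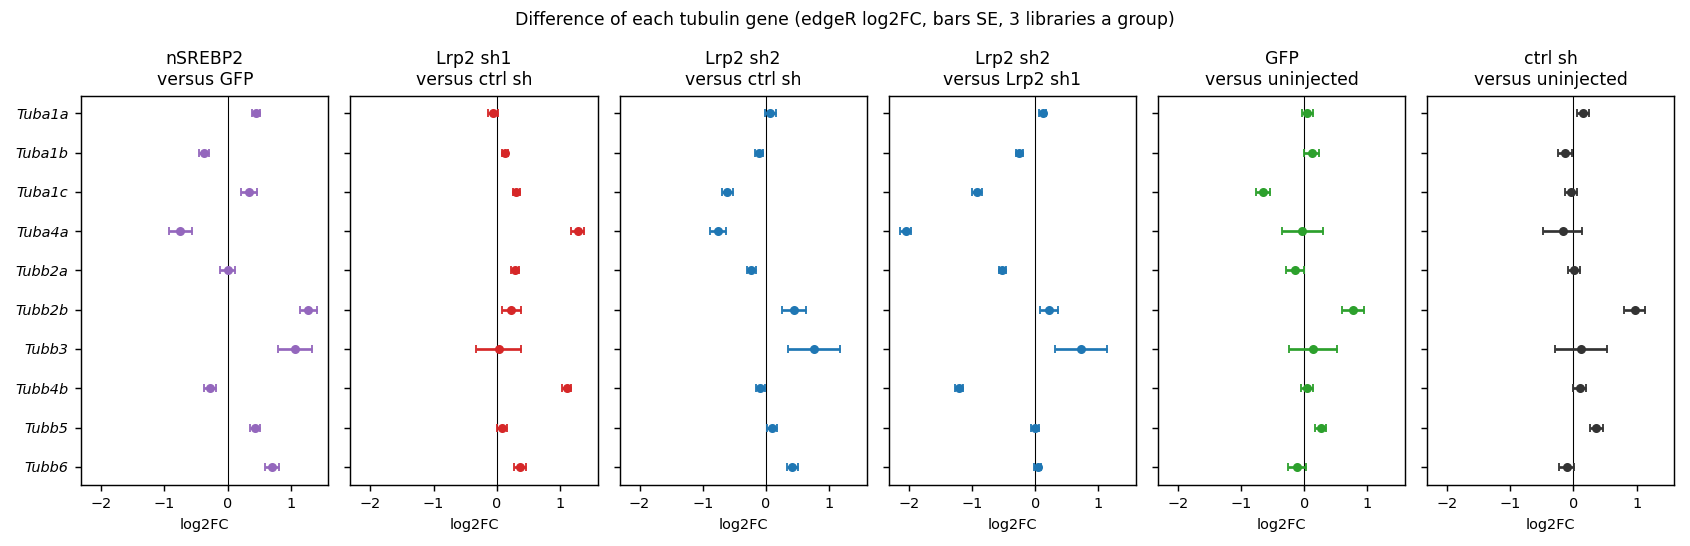
The log2FC of each tubulin gene (x axis) in 6 comparisons with the SE as the bar, 3 libraries a group. *Tuba4a* stood at 1.28 in Lrp2 sh1 versus ctrl sh, -0.76 in Lrp2 sh2 versus ctrl sh and -2.05 between the hairpins.

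nSREBP2 showed another set of tubulin genes. *Tubb2b* was at 29.9, 24.7 and 29.2 CPM in nSREBP2 and at 10.9, 9.81 and 13.8 CPM in GFP, without overlap (log2FC 1.28 ± 0.14, 2.43-fold). *Tubb3* was at 2.79, 3.42 and 2.45 CPM against 1.2, 1.59 and 1.36 (1.07 ± 0.27), the lowest levels of the 10 genes. *Tubb6* was at 57.3, 53.4 and 64.2 CPM against 31.5, 34.4 and 42.2 (0.70 ± 0.11). *Tuba1a* (0.45 ± 0.07) and *Tubb5* (0.43 ± 0.08) were higher in every library. *Tuba4a* was at 15.6, 11.8 and 14.4 CPM against 24.7, 28.4 and 17.5, lower in every library (-0.75 ± 0.18), and so was *Tuba1b* (-0.38 ± 0.08). *Tuba1c* (0.34 ± 0.12) was higher in every library without being called, and *Tubb2a* (0 ± 0.12) and *Tubb4b* (-0.28 ± 0.1) overlapped with GFP.

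Of the 10 genes, 7 were called, 5 higher and 2 lower, beside 21% of 17927 genes in either direction, 12.6% higher and 8.47% lower. The median log2FC was 0.39 over the 10 genes and -0.02 over all genes. Without replicate 2 of nSREBP2, 4 were called, *Tuba4a*, *Tuba1b* and *Tubb3* being lost. *Tuba4a* was also lost without replicate 1 or 2 of GFP, *Tubb3* without replicate 1 of GFP, with DESeq2 and with all 18 libraries in one fit, and *Tuba1b* without replicate 2 of GFP. All nSREBP2 libraries held Y-linked reads and no GFP library did, so sex and treatment cannot be told apart within these 6 libraries. In a fit of all 18 libraries with sex as a term, the log2FC of *Tubb3* was 2.11, that of *Tuba1a* 0.57 and that of *Tuba4a* -1.10, and *Tuba4a* was no longer called. All 8 fibroblast markers rose (72158 to 86300 CPM against 35143 to 44489), as did all 8 macrophage markers (549 to 586 against 290 to 334), 13 of 14 proliferation markers (239 to 321 against 124 to 134) and 5 of the 8 neuron markers tested of 14 (112 to 121 against 45.1 to 51.5), while 6 of 8 endothelial markers fell. Their part in the tubulin values was not tested.

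Against uninjected eyes, few tubulin genes were called in the injected controls, where injection and what the vector carried cannot be told apart. Between GFP and uninjected eyes 1 gene was called, *Tuba1c*, at 24.6, 25.6 and 27.3 CPM against 35.3, 43.1 and 42.8 (log2FC -0.66 ± 0.11). Of 17837 genes, 2.48% were called and 1.82% were called lower. The call was lost without replicate 2 or 3 of the uninjected group or replicate 1 or 2 of GFP, which left 0 tubulin genes called by edgeR with 2 to 3 at an unadjusted *P* under 0.05. DESeq2, run on all 6 libraries, called 2. *Tubb2b* (0.77 ± 0.17) and *Tubb5* (0.26 ± 0.09) were higher in every GFP library without being called. Between ctrl sh and uninjected eyes 1 gene was called, *Tubb2b*, at 11.6, 16.4 and 11.6 CPM against 6.83, 6.38 and 6.88 (0.97 ± 0.17). *Tubb5* (0.36 ± 0.1) was higher in every ctrl sh library without being called. Of 17822 genes, 6.49% were called and 3.13% were called higher. Without replicate 3 of the uninjected group or replicate 2 of ctrl sh the count was 0 by edgeR, with 2 at an unadjusted *P* under 0.05, and DESeq2 on all 6 libraries called 2. The uninjected libraries were far apart in *Tuba4a* (11.1, 29.3 and 30.9 CPM), and the library at 11.1 CPM also had the lowest *Lrp2* of its group (55.9 against 139 and 150 CPM). RPE markers fell in GFP (7 of 10, with *Rpe65* at 1.06 to 2.31 CPM). Their part in the tubulin values was not tested.

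The stricter threshold of the study, which adds an absolute log2FC above 1 to the adjusted *P*, was passed by *Tubb2b* and *Tubb3* in nSREBP2, by *Tuba4a* and *Tubb4b* in Lrp2 sh1 and by *Tuba4a* and *Tubb4b* between the hairpins, and by no tubulin gene of the 10 in the remaining comparisons. The share of all genes past it was 6.67% in nSREBP2 versus GFP, 0.994% in Lrp2 sh1 versus ctrl sh, 4.76% in Lrp2 sh2 versus ctrl sh, 5.13% between the hairpins, 1.41% in GFP versus uninjected and 2.39% in ctrl sh versus uninjected.

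The order of the groups differed from gene to gene. *Tuba1a*, *Tubb2b*, *Tubb5* and *Tubb6* were highest in nSREBP2, and the lowest nSREBP2 library was above the highest library of the group that followed. *Tuba1c*, *Tuba4a*, *Tubb2a* and *Tubb4b* were highest in Lrp2 sh1, with the same gap to the next group. *Tuba1b* was highest in GFP and *Tubb3* in nSREBP2, each overlapping with the next group. Most other neighbors in the order of groups overlapped. Over the 18 libraries, Pearson's r of the log2 CPM was 0.96 between *Tubb2b* and *Tubb5*, 0.87 between *Tuba1a* and *Tubb2b* and 0.86 between *Tuba1a* and *Tubb5*. It was 0.86 between *Tuba4a* and *Tubb4b*, 0.81 between *Tuba1c* and *Tubb2a* and -0.58 between *Tuba1a* and *Tuba1b*. These values describe libraries that share their groups and, for the near-identical genes, ambiguous reads.

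**Figure D4:**
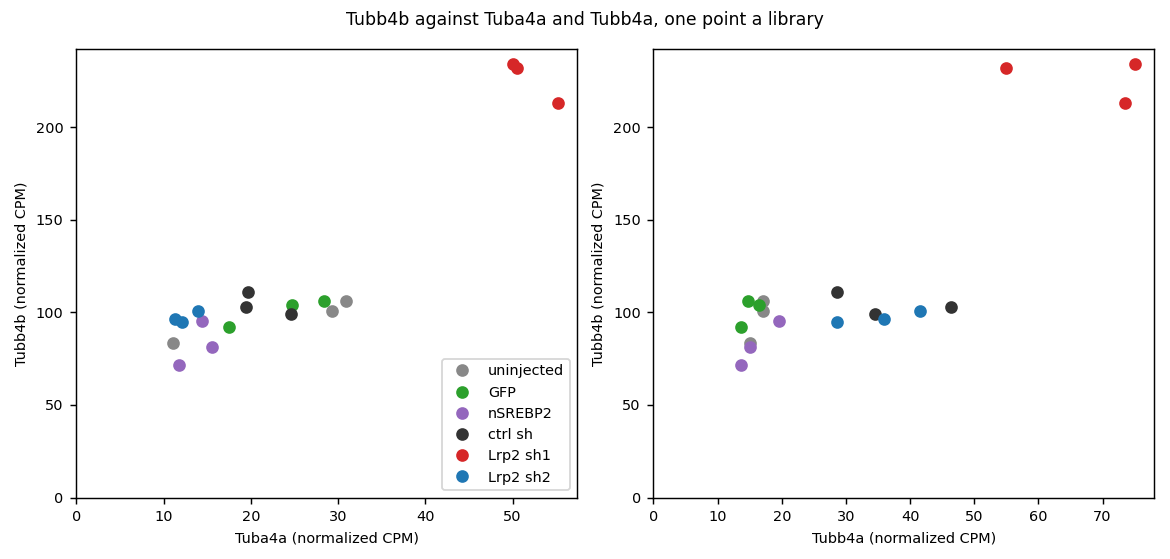
Normalized CPM of *Tubb4b* (y axis) against *Tuba4a* (left) and *Tubb4a* (right), 1 point a library, colored by group. The 3 Lrp2 sh1 libraries stand apart at 50.1 to 55.2 CPM of *Tuba4a* and 213 to 234 CPM of *Tubb4b*.

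Of the tubulin genes outside the set, *Tubb4a*, a β-tubulin of neurons and oligodendrocytes, was the one with marked differences. It was at 55, 73.5 and 75 CPM in Lrp2 sh1, at 34.6, 46.4 and 28.6 in ctrl sh, at 28.6, 35.9 and 41.6 in Lrp2 sh2 and at 15.1, 17.1 and 17.1 in uninjected eyes. It rose in ctrl sh against uninjected eyes (log2FC 1.14 ± 0.17, edgeR adjusted *P* = 0.0123) and again in Lrp2 sh1 against ctrl sh (0.89 ± 0.17, edgeR adjusted *P* = 0.0173), and it was lower in Lrp2 sh2 than in Lrp2 sh1 (-0.93 ± 0.15, edgeR adjusted *P* = 0.00143). In Lrp2 sh2 against ctrl sh the difference was -0.04 ± 0.18 (edgeR adjusted *P* = 0.914). The Lrp2 sh1 call was lost without replicate 3 of ctrl sh or replicate 2 or 3 of Lrp2 sh1 (0.0506 to 0.0769). *Tubb1*, the β-tubulin of platelets, fell in Lrp2 sh2 from 1.2 ± 0.521 to 0.275 ± 0.051 CPM (SD, n = 3, edgeR adjusted *P* = 0.015). This level is close to the limit a count of 0 allows. The call of *Tubb1* was lost without replicate 2 of ctrl sh or replicate 1 or 2 of Lrp2 sh2 (0.0526 to 0.0621). *Tubg2*, a γ-tubulin, fell in ctrl sh against uninjected eyes (-0.83 ± 0.19, edgeR adjusted *P* = 0.0369), and 5 of the 6 fits without 1 library lost it. *Tubal3* had no count in any library, and *Tuba3a*, *Tuba3b* and *Tuba8* stayed at 0.726 CPM or less.

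Tubulin chains are folded by the CCT chaperonin with the help of prefoldin and then assembled by the tubulin cofactors. Of 21 such genes, 7 rose and 1 fell in Lrp2 sh2 against ctrl sh, where 8.59% and 9.48% of all genes did, and the median log2FC was 0.18 beside 0.01 over all genes, while in Lrp2 sh1 it was 0.18 beside -0.01. The largest rises were those of the chaperonin subunits *Cct2* (0.49 ± 0.08, 124 ± 10.2 CPM against 88.8 ± 6.07), *Cct8* (0.37 ± 0.07) and *Cct5* (0.35 ± 0.08, lost without replicate 3 of ctrl sh at 0.0533). The gene that fell was *Arl2*, a GTPase that works with the cofactors (-0.34 ± 0.1, edgeR adjusted *P* = 0.045, 0.0936 to 0.118 in the 5 of 6 fits without 1 library that lost it). In Lrp2 sh1, 2 of 21 rose, *Cct6a* (0.29 ± 0.05) and *Tcp1* (0.21 ± 0.05), beside 3.06% of all genes. In ctrl sh against uninjected eyes 1 of 21 rose, *Cct3* (0.38 ± 0.09), beside 3.13% of all genes. Without 1 library *Cct6a* was lost in 4 of 6 fits, and *Tcp1* and *Cct3* in all 6. In nSREBP2, 2 of 21 fell, the prefoldin subunit *Pfdn2* (-0.63 ± 0.14) and the cofactor-like *Tbcel* (-0.42 ± 0.07), beside 8.47% of all genes. The call of *Tbcel* was lost with sex as a term (0.103). *Tbcel* was lower in Lrp2 sh2 than in Lrp2 sh1 too (-0.51 ± 0.08, edgeR adjusted *P* = 0.00122). Between the hairpins 1 of 21 was higher and 2 were lower in Lrp2 sh2, beside 22.4% of all genes called in either direction. *Cct2* was the higher one (0.23 ± 0.07, edgeR adjusted *P* = 0.0461). This call was lost in 5 of 6 fits without 1 library, with DESeq2 (0.053) and with sex as a term (0.464). *Arl2* was lower (-0.43 ± 0.1, lost without replicate 3 of Lrp2 sh1 at 0.0519 and with sex as a term at 0.068).

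Cells destroy α- and β-tubulin mRNA when free tubulin is plentiful, through *Ttc5*, *Scaper* and *Cnot11*. Of these 3 genes, *Cnot11*, which links to the deadenylase complex, was lower in Lrp2 sh2 than in Lrp2 sh1, at 27.2 ± 1.04 against 35.7 ± 2.12 CPM (SD, n = 3; log2FC -0.38 ± 0.08, edgeR adjusted *P* = 0.00572; with sex as a term in the fit of all 18 libraries, 0.11).

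Of 21 tubulin-modifying enzymes that were tested, 1 was higher and 3 were lower in Lrp2 sh2 than in Lrp2 sh1, beside 22.4% of all genes called in either direction. *Ttll7*, a glutamylase that acts on β-tubulin, was at 60.5 ± 7.23 CPM in Lrp2 sh1, 45.9 ± 13 in ctrl sh and 14.3 ± 1.28 in Lrp2 sh2 (SD, n = 3), and it was lower in Lrp2 sh2 than in either (-2.07 ± 0.11 and -1.67 ± 0.19, edgeR adjusted *P* = 2.06e-06 and 0.00047). *Ttll12* rose in Lrp2 sh1 (0.45 ± 0.07, edgeR adjusted *P* = 0.00903) and fell in Lrp2 sh2 (-0.53 ± 0.08, edgeR adjusted *P* = 0.00203), with -0.98 ± 0.06 between the hairpins. It also rose in ctrl sh against uninjected eyes (0.81 ± 0.12, lost without replicate 3 of ctrl sh at 0.0561). *Agbl2*, a carboxypeptidase of the family that shortens tubulin tails, rose in Lrp2 sh2 from 2.85 ± 0.753 to 6.66 ± 0.383 CPM (1.23 ± 0.22) and was 1.63 ± 0.21 higher than in Lrp2 sh1. The related *Agtpbp1* rose in Lrp2 sh2 (0.37 ± 0.08) and Lrp2 sh1 (0.26 ± 0.06), losing the call in 4 and 5 of the 6 fits without 1 library. The deacetylase *Sirt2* fell in Lrp2 sh2 (-0.48 ± 0.09, edgeR adjusted *P* = 0.00733), and *Ttll11* was lower in Lrp2 sh2 than in Lrp2 sh1 (-0.81 ± 0.22), lost in 4 of 6 fits. Of 28 genes of this list, 21 were tested, and 2 rose and 3 fell in Lrp2 sh2 against ctrl sh (18.1% of all genes were called), while 2 rose in Lrp2 sh1 (5.33% of all genes were called).

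In nSREBP2, 2 of the 21 tubulin-modifying enzymes tested rose and 1 fell against GFP, beside 12.6% and 8.47% of all genes. Those that rose were the vasohibins, which remove the terminal tyrosine that *Tuba1c* encodes and *Tuba4a* lacks. *Vash2* was at 17.5 ± 1.91 against 8.43 ± 2.2 CPM (SD, n = 3; log2FC 1.05 ± 0.19, edgeR adjusted *P* = 0.00343), and *Vash1* was at 46.3 ± 0.618 against 33.3 ± 4.82 CPM (0.48 ± 0.1, edgeR adjusted *P* = 0.00898). *Ttll7* fell there (-0.58 ± 0.14, edgeR adjusted *P* = 0.0141), but not without replicate 2 of GFP (0.0519), without replicate 2 of nSREBP2 (0.0573) or with sex as a term (0.464). Against uninjected eyes, 1 of 21 fell in GFP, beside 1.82% of all genes. In ctrl sh 1 rose and 3 fell, beside 6.49% of all genes called in either direction. *Ttll3*, a glycylase of cilia, fell in GFP (-0.70 ± 0.13) and in ctrl sh (-0.79 ± 0.14), and *Agbl3* (-0.68 ± 0.13) and *Ttll4* (-0.45 ± 0.09) fell in ctrl sh. Without 1 library, the first call was lost in 5 of 6 fits and each of the other 3 in 3 of 6, with replicates 2 and 3 of ctrl sh among those left out in each of these 3.

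Of 34 microtubule-associated proteins, 33 were tested between the hairpins, and 5 were higher and 4 lower in Lrp2 sh2, beside the same 22.4% of all genes called. *Map7d2*, which recruits kinesin-1, was at 7.35 ± 0.0399 CPM in Lrp2 sh2 and 1.01 ± 0.0715 in Lrp2 sh1 (SD, n = 3; log2FC 2.86 ± 0.2, edgeR adjusted *P* = 1.11e-05), with 2.3 ± 0.355 in ctrl sh between them. It rose in Lrp2 sh2 against ctrl sh (1.68 ± 0.19), and the fall in Lrp2 sh1 (-1.18 ± 0.26, edgeR adjusted *P* = 0.0316) was lost in 5 of 6 fits without 1 library. *Map2*, a stabilizer of dendritic microtubules, was at 48.6 ± 6.16 CPM in Lrp2 sh2 against 25.7 ± 2.72 in Lrp2 sh1 and 24.9 ± 0.233 in ctrl sh (0.93 ± 0.11 and 0.97 ± 0.1), and *Map1b* rose against ctrl sh (0.5 ± 0.09). *Map1a* went the other way, at 112 ± 4.68 CPM in Lrp2 sh2, 225 ± 25.2 in Lrp2 sh1 and 195 ± 10.3 in ctrl sh. Lower in Lrp2 sh2 than in Lrp2 sh1 were also the plus-end protein *Mapre3* (-1.01 ± 0.08, edgeR adjusted *P* = 2.81e-05) and the minus-end protein *Camsap3* (-1.09 ± 0.15, edgeR adjusted *P* = 0.00059). Against ctrl sh, *Mapre3* fell by 0.68 and *Camsap3* by 0.73 on the log2 scale, the latter lost without replicate 1 or 3 of ctrl sh or replicate 1 or 2 of Lrp2 sh2 (0.0661 to 0.0956). *Stmn1* was 0.45 ± 0.14 higher in Lrp2 sh2 than in Lrp2 sh1, lost in 5 of 6 fits. In Lrp2 sh1, *Clip2* (0.3 ± 0.06) and *Camsap2* (0.29 ± 0.06) rose, lost in 4 and 5 of 6 fits.

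**Figure D5:**
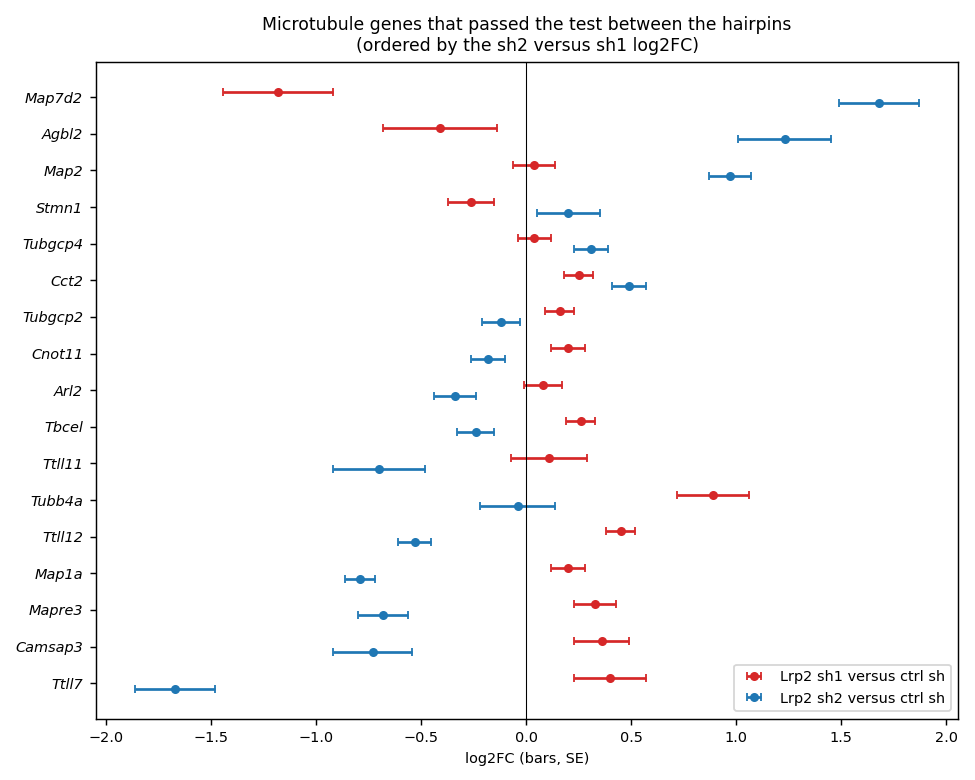
The log2FC (x axis, bars SE) against ctrl sh in Lrp2 sh1 (red) and Lrp2 sh2 (blue) of the 17 genes from the tubulin and microtubule lists named for the direct comparison of the hairpins, ordered by that difference. *Map7d2* stands at -1.18 and 1.68 and *Ttll7* at 0.40 and -1.67. Both comparisons share the ctrl sh libraries.

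In nSREBP2, *Map2* (0.77 ± 0.08, edgeR adjusted *P* = 0.000148) and *Map6*, a stabilizer of cold-stable microtubules (0.80 ± 0.09, edgeR adjusted *P* = 0.000202), rose against GFP. *Clip2* rose by 0.32 ± 0.07 (0.0541 without replicate 2 of GFP). *Camsap3* (-1.08 ± 0.2, edgeR adjusted *P* = 0.00458) and *Stmn3* (-1.02 ± 0.2, edgeR adjusted *P* = 0.00636) fell, the latter not with sex as a term (0.0799). Of the 33 genes of this list tested there, 3 rose and 2 fell, beside 21% of all genes called in either direction. In ctrl sh against uninjected eyes 4 rose and 2 fell, beside 6.49% of all genes called, with *Dcx* at 2.1 ± 0.277 against 0.473 ± 0.13 CPM (SD, n = 3; 2.11 ± 0.34, edgeR adjusted *P* = 0.0144), *Map1a* (0.79 ± 0.08, edgeR adjusted *P* = 0.00361) and *Mapre3* (0.64 ± 0.14) among those that rose and *Stmn3* (-0.95 ± 0.23) and *Fign* (-0.55 ± 0.14) those that fell. The *Dcx* call was lost in 3 of 6 fits without 1 library, those of *Mapre3* and *Stmn3* in 5 and that of *Fign* in all 6. *Map1a* passed in all 6.

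The γ-tubulin ring complex, on which microtubules start, had at most 1 of 8 genes called in each direction in any comparison. Of all genes, 21% were called in nSREBP2, 18.1% in Lrp2 sh2, 22.4% between the hairpins and 6.49% in ctrl sh against uninjected eyes. *Tubgcp3* fell in nSREBP2 (-0.26 ± 0.07, edgeR adjusted *P* = 0.0186), *Tubgcp4* rose in Lrp2 sh2 against ctrl sh (0.31 ± 0.08) and was higher than in Lrp2 sh1 (0.26 ± 0.07), *Tubgcp2* was lower in Lrp2 sh2 than in Lrp2 sh1 (-0.29 ± 0.08), and *Mzt2* fell in ctrl sh against uninjected eyes (-0.78 ± 0.12, edgeR adjusted *P* = 0.0124). Each of these calls was lost without at least 1 library, in 2 to 6 of 6 fits. With sex as a term, the calls of *Tubgcp3* in nSREBP2 (0.155) and of *Tubgcp4* between the hairpins (0.089) were lost too.

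Among 14998 other genes with a mean log2 CPM of at least 1, the genes closest to the mean standardized pattern of the 10 tubulin genes over the 18 libraries were *Rnh1* (Pearson's r 0.915), *Ssr1* (0.911), *Inf2* (0.885), *Cyb5r3* (0.875) and *Icmt* (0.872). *Rnh1* encodes a ribonuclease inhibitor, *Ssr1* a subunit of the translocon-associated complex of the endoplasmic reticulum, *Inf2* a formin, *Cyb5r3* a reductase and *Icmt* a methyltransferase of prenylated proteins. The 10 genes did not share a single pattern, with r at 0.96 for *Tubb2b* and *Tubb5* but -0.58 for *Tuba1a* and *Tuba1b*. Their mean thus joins genes that moved in opposite directions.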

How the data were processed

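Alignment to GRCm38 and gene counting were done by the authors with STAR. The table they deposited holds raw counts in whole numbers. Its gene annotation and strand setting are not given in the sources used here. Groups came from the sample labels, and ctrl sh is the group that the labels name by LacZ. The tubulin genes and all lists were chosen with earlier results of these data known.

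For each of 6 comparisons, the 6 libraries involved were filtered with filterByExpr, normalized by TMM and tested with glmQLFit and glmQLFTest of edgeR 4.0.16 (R 4.3.3), with Benjamini-Hochberg adjustment over all genes tested. SEs were taken from the log2FC and the F statistic. The scripts were tested on simulated data. Levels are TMM-normalized CPM over the 18 libraries, and log2 CPM used a prior count of 2. Replicates were different mice. Only counting error is covered by the limit of 3 counts. Named from each of 6 lists were up to 3 called genes a direction with the largest change, and for likeness the 5 genes with the highest Pearson's r. Gene models and coding sequences came from GENCODE M21 and promoters from RefSeq, where 9 of the 11 genes searched (the 10 tubulin genes and *Tubb4a*) matched. Tables were made with Python 3.11.15. Alternatives were DESeq2 1.42.0, its size factors, no filter, 1 fit of all libraries, sex as a term, the replicate number as a block and leaving out each library.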

Additional observations from a re-analysis of the deposited data

Results flagged for a closer look

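The direct test between the hairpins (Lrp2 sh2 versus Lrp2 sh1, edgeR quasi-likelihood, adjusted *P* under 0.05) called the 17 genes below, up to 3 a direction from each of the tubulin and microtubule lists, different between groups that share a target. Higher in Lrp2 sh2 were *Map7d2* (log2FC 2.86), *Agbl2* (1.63), *Map2* (0.93), *Stmn1* (0.45), *Tubgcp4* (0.26) and *Cct2* (0.23). Lower in Lrp2 sh2 were *Ttll7* (-2.07), *Camsap3* (-1.09), *Mapre3* (-1.01), *Map1a* (-1.0), *Ttll12* (-0.98), *Tubb4a* (-0.93), *Ttll11* (-0.81), *Tbcel* (-0.51), *Arl2* (-0.43), *Cnot11* (-0.38) and *Tubgcp2* (-0.29).

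For 4 tubulin genes, every Lrp2 sh1 library was above all ctrl sh libraries and every Lrp2 sh2 library below them, a placement that was not itself tested. How many of all genes were placed this way was not counted, so the placement cannot be called unusual. All 4 were called lower between the hairpins, as were 12.3% of 17975 genes. This is a description only, since the genes were chosen by these values. The log2FC between the hairpins was -2.05 for *Tuba4a*, -0.92 for *Tuba1c*, -0.52 for *Tubb2a* and -0.25 for *Tuba1b*.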

How the results depend on the processing

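The counts below are of the 10 tubulin genes at an adjusted *P* under 0.05. No called tubulin gene changed sign under any alternative run. In Lrp2 sh1 versus ctrl sh the count of 5 became 2 with all 18 libraries in one fit, 2 with sex as a term and 2 with the replicate block. In GFP versus uninjected the count of 1 became 2 with DESeq2, 2 with no filter on low counts, 3 with all 18 libraries in one fit and 2 with sex as a term. In ctrl sh versus uninjected the count of 1 became 2 with DESeq2, with no filter, with all 18 libraries and with sex as a term, and 0 with the replicate block (2 at an unadjusted *P* under 0.05). With an absolute log2FC above 1 required as well, counts were 2 of 7 in nSREBP2, 2 of 5 in Lrp2 sh1, 2 of 5 between the hairpins and 0 in the other comparisons. Leaving out 1 library gave 4 to 8 in nSREBP2, 2 to 5 in Lrp2 sh1, 3 to 3 in Lrp2 sh2, 5 to 5 between the hairpins and 0 to 1 in both comparisons with uninjected eyes. The cause was not tested. The replicate block gave 8 in nSREBP2, 4 in Lrp2 sh2, 5 between the hairpins and 1 in GFP. Deviations of same-numbered libraries from their group means had correlations of -0.259 to 0.265. Differently numbered libraries were not correlated for comparison, so these values cannot decide whether the numbers pair the mice. Called list genes named above kept the call in every fit without 1 library for 8 of 11 in nSREBP2, 1 of 8 in Lrp2 sh1, 11 of 17 in Lrp2 sh2, 11 of 17 between the hairpins, 0 of 1 in GFP and 2 of 13 in ctrl sh. Ranking likeness by Spearman's rho instead kept 2 of the 5 closest genes. *Tubb3*, at 0.869 to 3.74 CPM, had SEs up to 0.41 on the log2 scale, and the part of counting error in them was not tested.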

Other observations

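The genes closest to *Tuba4a* and *Tubb4b*, which were chosen for this after their values were seen, differed from those closest to the mean of the set. Over the 18 libraries, Pearson's r with *Tuba4a* was 0.958 for *Gclm*, which encodes a subunit of the enzyme that limits glutathione synthesis, 0.952 for *Degs1*, a desaturase of ceramide synthesis, 0.943 for *Chrnb4*, 0.94 for *Aldh6a1* and 0.931 for *Slc48a1*, a heme transporter. For *Tubb4b* it was 0.956 for *Tspyl1*, 0.955 for *Dtx1*, 0.943 for *Ctage5*, 0.928 for *Arhgef16* and 0.925 for *Stard10*. *Tubb4a* ranked 258 of 14998 genes by likeness to *Tubb4b* (r 0.786) and 2216 by likeness to *Tuba4a* (r 0.51). These are descriptions over libraries that share their groups.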
